A study of Mus musculus with 2 samples.

Results

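The 6 genes described here, Hoxa9, Hoxb9, Hoxc9, Hoxd9, Hoxa10 and Hoxc10, belong to paralog groups 9 and 10 of the Hox family and were taken by symbol from the 31053 genes of the deposited feature list. They were chosen because Hoxc9 and Hoxa9 had already been seen to differ between the libraries of this series, so their levels over a whole library are given as a description. What the choice did not use directly is how each gene behaved within each cell class and how often the genes were found in the same cell. Both are still tied to the library difference, so they are given as a description too. The data are single-cell transcriptomes of MM13 cells, a line of mouse embryonic stem cells, at day 9 of a differentiation towards sensory interneurons of the spinal cord. Cultures of the same line received RA (retinoic acid, a caudalising signal) in 1 condition and RA together with BMP4 (a dorsalising signal of the roof plate) in the other, and both conditions therefore carried RA. The sources used here name neither the doses nor the days of treatment, nor how many cultures entered a library. Each condition was captured as 1 library, so no difference between conditions has a replicate check, no test was made and the 95% intervals below cover counting error only.

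Hox genes encode homeodomain transcription factors that lie in 4 clusters in the mammalian genome, and their order along a cluster, from paralog group 1 to paralog group 13, follows the order of their expression from head to tail. In the spinal cord, genes of groups 4 to 8 are typical of cervical and brachial levels, those of group 9 of thoracic levels and those of group 10 of lumbar levels. Hoxc9 is known for setting thoracic identity of motor neurons and for holding more anterior Hox genes down, and Hoxa10, Hoxc10 and their paralogs act in the lumbar cord. Hoxa9, Hoxb9 and Hoxd9 act with Hoxc9 in the positioning of the limbs and in the patterning of the trunk.

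In the GRCm38 build with GENCODE M21 gene models, Hoxa9 (chr6:52223100-52231089) and Hoxa10 (chr6:52231197-52240854) are neighbours on the minus strand. Hoxb9 lies at chr11:96271457-96276595, Hoxd9 at chr2:74697727-74700208, and Hoxc10 (chr15:102966796-102971893) and Hoxc9 (chr15:102976439-102985099) follow each other, all on the plus strand. Hoxc10 shares 166 of its 1909 exonic bases with Hoxc5 on the same strand, so its few counts are uncertain, whereas Hoxc9 lies within the span of Hoxc5 but shares 0 exonic bases with it. The miR-196 microRNAs, which are known to target Hox transcripts, are encoded beside the group 9 genes in 3 of the clusters, and Mir196b lies within exonic sequence of Hoxa9. They were not measured by this assay. Their mature sequences, from RefSeq (GRCm38.p6), are shown because the pair shares its seed, bases 2 to 8, written in capitals.
miR-196a-5p: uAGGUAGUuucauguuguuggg
miR-196b-5p: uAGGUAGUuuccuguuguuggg

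Promoters of Hoxa9, Hoxa10 and Hoxd9 were found in the RefSeq promoter table of GRCm38.p6. The 250 bases before a start site are shown for the neighbours Hoxa9 (chr6:52227371-52227620, minus strand) and Hoxa10 (its downstream start, chr6:52234940-52235189, minus strand). They were picked because their levels over all kept cells went apart between the libraries. With cell classes weighted alike in both libraries they did not go in opposite directions: the log2 ratios were 1.37 for Hoxa9 and 0.24 for Hoxa10. Capitals mark the matches to 5 motifs searched on both strands, AGGTCA (a retinoid receptor motif), GGCGCC (a SMAD motif), TTTATG (a CDX motif), TATAAA and CCAAT.
Hoxa9: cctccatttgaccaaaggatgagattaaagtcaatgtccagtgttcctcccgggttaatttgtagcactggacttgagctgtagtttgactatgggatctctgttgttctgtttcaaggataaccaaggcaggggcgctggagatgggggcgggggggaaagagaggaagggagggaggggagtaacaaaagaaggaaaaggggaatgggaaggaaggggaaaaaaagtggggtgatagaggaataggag
Hoxa10: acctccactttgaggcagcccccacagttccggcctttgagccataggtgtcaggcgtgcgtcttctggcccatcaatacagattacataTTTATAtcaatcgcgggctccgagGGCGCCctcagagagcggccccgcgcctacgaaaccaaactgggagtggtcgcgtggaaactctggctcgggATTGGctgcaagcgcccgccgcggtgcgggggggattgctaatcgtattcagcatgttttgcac
The Hoxa9 stretch held none of the 5 motifs and 3 CpG dinucleotides at 49.6% GC. The Hoxa10 stretch held TATAAA and CCAAT, both on the opposite strand, and GGCGCC, none of which overlapped, and 20 CpG dinucleotides at 59.2% GC. The other start of Hoxa10 in the table (chr6:52240855-52241104, minus strand) held 0 of the 5 motifs and 7 CpG dinucleotides at 51.6% GC, so the contrast with Hoxa9 holds for the downstream start only. Over 32851 promoters of the same length, the median was 6 CpG dinucleotides and 52.4% GC, and AGGTCA was found in 14%, GGCGCC in 9.59%, TTTATG in 10.8%, TATAAA in 12.4% and CCAAT in 33.85%. These matches describe the letters only.

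The RA library held 9704 barcodes and 122110565 UMIs (unique molecular identifiers, each counting 1 captured transcript) and the RA+BMP4 library 13121 barcodes and 115268932 UMIs. After filters on genes, mitochondrial UMIs and doublets, 5900 and 8352 cells were kept, with median depths of 14196 and 10465 UMIs and median mitochondrial shares of 6.06% and 4.22%. The libraries had 21 kept barcodes in common. Without these barcodes the log2 ratio over the libraries was 1.84 for Hoxc9 and 1.41 for Hoxa9. Cells were clustered without any Hox gene, and 11 classes with at least 50 cells in each library took a name from their markers, always as "-like". The classes were unevenly filled: the RA and RA+BMP4 libraries had 174 and 1759 dI1-like neurons (the Barhl1 and Barhl2 neurons of the dorsal cord), 612 and 2686 roof plate-like cells, but 988 and 138 dI5/dILB-like neurons. The labels call the samples neurons, yet 437 and 922 mesenchyme-like and 321 and 166 pluripotent-like cells were among them. Within a class, different clusters could prevail. Most dI1-like cells of the RA library were in an Atoh1- and Lhx2-led cluster of early cells (110 of 174), and those of the RA+BMP4 library were spread over that cluster (445) and 2 later ones (746 and 568). Newborn neuron-like cells of the RA library were split between a Neurog2-led and a Tlx1-led cluster (307 and 312), and those of the RA+BMP4 library were mostly in the former (392 of 436). Of the 3 roof plate-like clusters, 2 were led by mitosis or histone genes and by no roof plate marker.

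Over all kept cells, Hoxc9 was at 60.5 CPM (UMIs of the gene scaled to the same total of UMIs) in the RA library and 217.7 CPM in the RA+BMP4 library, from 6599 and 22198 UMIs, a log2 ratio of 1.85 (interval 1.81 to 1.89). Hoxa9 was at 24.9 and 66.0 CPM, from 2711 and 6734 UMIs, a log2 ratio of 1.41 (1.34 to 1.47). Hoxb9, the paralog with most UMIs, was at 430.5 and 483 CPM, a log2 ratio of 0.17 (0.15 to 0.18), which turned to -0.02 when each cell was weighted equally. Hoxc9 and Hoxa9 were thus both higher in the RA+BMP4 library, and the level of Hoxb9 was nearly the same. Hoxd9 was at 0.908 and 2.82 CPM (99 and 288 UMIs), a log2 ratio of 1.64 (1.30 to 1.98). Hoxa10 was at 4.84 and 2.58 CPM (527 and 263 UMIs), a log2 ratio of -0.91 (-1.13 to -0.69), and Hoxc10 at 0.248 and 0.510 CPM (27 and 52 UMIs), a log2 ratio of 1.04 (0.34 to 1.77). With genes at 1 CPM or more in either library, 3 of the 4 group 9 genes were at least 2-fold higher with BMP4, where 353 of 13920 genes (2.54%) were. With at least 20 CPM, 59 of 7152 genes (0.825%) were, Hoxc9 and Hoxa9 among them. These library contrasts are the ones the genes were chosen from, and nothing is read from the counts.

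Since the cell classes differed in size, levels were also averaged over the 11 classes with the same weights in both libraries. Hoxc9 was then at 67.7 and 193 CPM, a log2 ratio of 1.51 (1.46 to 1.56). The other part of its library difference came with the classes: the RA levels of each class, combined with the class shares of the RA+BMP4 library, alone gave a 1.22-fold higher level. For Hoxa9 the values at equal shares were 25.9 and 66.9 CPM, a log2 ratio of 1.37 (1.28 to 1.46), and class shares alone gave 1.06-fold. Hoxb9 was at 414 and 519 CPM, a log2 ratio of 0.33 (0.30 to 0.35), with 0.900-fold from shares alone. At equal shares 19 of 7083 genes (0.268%) were at least 2-fold higher with BMP4. Over the 7083 genes Hoxc9 had rank 3, Hoxa9 rank 5 and Hoxb9 rank 647. Equal shares reweight the library contrast that the genes were chosen from, so nothing is read from these ranks.

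Hoxc9 was higher in the RA+BMP4 library in each of the 11 classes, and at least 2-fold higher in 10 of them. It was highest in dI2-like neurons (Foxd3 and Hmx2 neurons), at 193 and 570 CPM in the RA and RA+BMP4 libraries, a log2 ratio of 1.56 (1.42 to 1.71). In dI1-like neurons it went from 174 to 542 CPM, and the intervals of these neighbours overlapped in both libraries. In dI5/dILB-like neurons, the excitatory Tlx3 and Lmx1b type, it was at 142 and 423 CPM, and in the inhibitory dI4/dILA-like neurons, led by Pax2 and Gad2, at 115 and 280 CPM. Pan-neuronal-like cells had 117 and 290 CPM and newborn neuron-like cells 55.8 and 139.9 CPM. The classes other than neurons were all below the dI4/dILA-like level in both libraries. Roof plate-like cells, the dorsal midline cells that make BMP and Wnt ligands, had 51.2 and 154 CPM, 3.01-fold (2.78 to 3.26), and dorsal midline epithelium-like cells 24.6 and 85.5 CPM, a log2 ratio of 1.79 (1.54 to 2.05). The exception was the progenitor-like class, with 49.0 and 84.1 CPM, 1.72-fold (1.52 to 1.94). Progenitor-like and roof plate-like cells had intervals that overlapped in the RA library and not in the RA+BMP4 library.

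**Figure D1:**
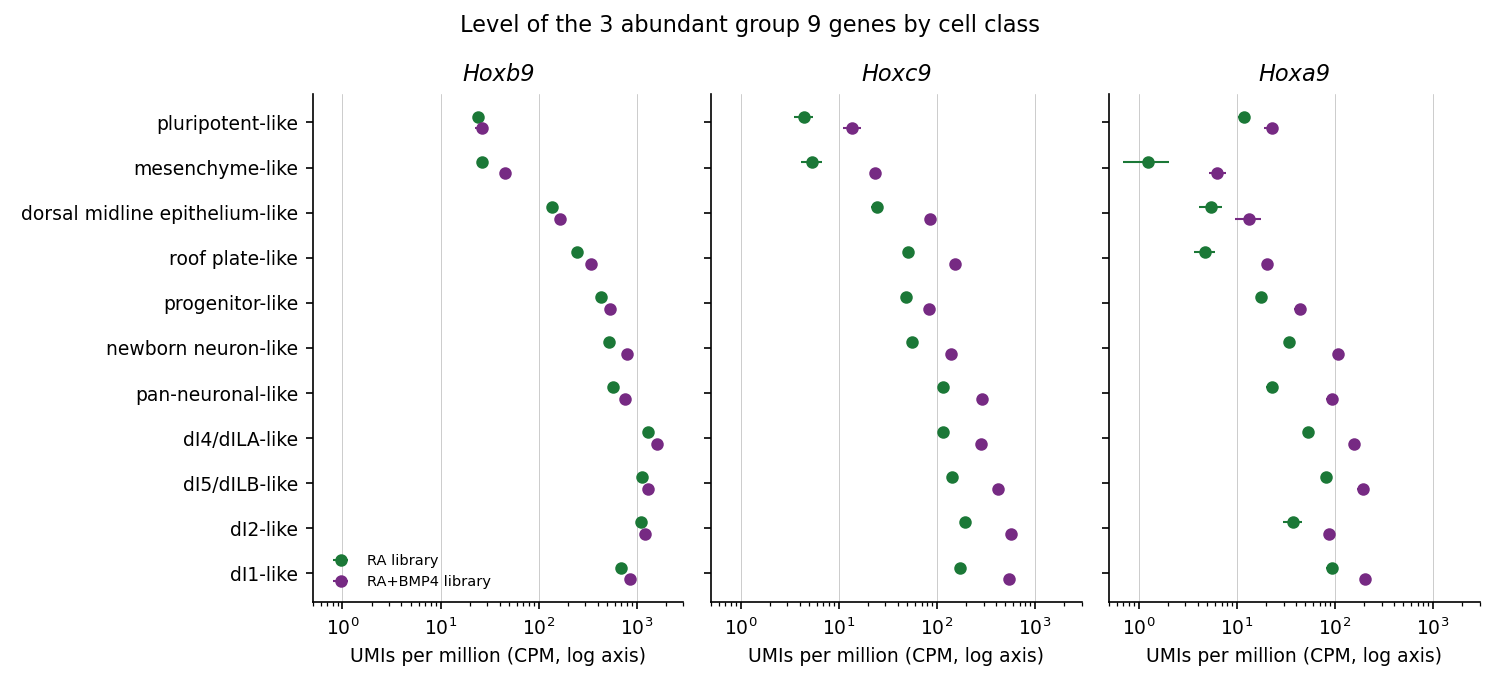
Level of Hoxb9, Hoxc9 and Hoxa9 in each of the 11 cell classes, in CPM on a log axis, for the RA library (green) and the RA+BMP4 library (purple), with 95% Poisson intervals as bars. Hoxc9 and Hoxa9 points of the RA+BMP4 library lie to the right of those of the RA library in all 11 classes, and Hoxb9 points lie close together.

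Hoxa9 was likewise higher in all 11 classes and at least 2-fold higher in 10. Its order over classes was its own: dI1-like neurons were highest with 93.01 and 205 CPM, then dI5/dILB-like with 80.3 and 193 CPM and dI4/dILA-like with 52.6 and 156 CPM, while dI2-like neurons, where Hoxc9 peaked, had 37.0 and 86.4 CPM. The dI1-like and dI5/dILB-like intervals overlapped in each library. The ratio was wide in pan-neuronal-like cells, 22.8 and 92.96 CPM, a log2 ratio of 2.03 (1.75 to 2.31), and in roof plate-like cells, 4.73 and 20.5 CPM, a log2 ratio of 2.11 (1.74 to 2.50). Progenitor-like cells, the exception for Hoxc9, had 17.8 and 43.7 CPM of Hoxa9, a log2 ratio of 1.30 (1.03 to 1.56). For Hoxa9 the exception was the pluripotent-like class, with 11.9 and 22.6 CPM, a log2 ratio of 0.92 (0.61 to 1.23). Lower bounds above 2-fold were reached by Hoxc9 in 10 classes and by Hoxa9 in 7. A ratio of at least 2-fold in 10 or more of the 11 classes was found for 4 of 7152 genes (0.0559%): Hoxc9, Hoxa9, Barhl1 and Barhl2. Ratios within classes are tied to the library difference for which Hoxc9 and Hoxa9 were chosen, so nothing is read from this count. Class by class, the share of genes at least 2-fold higher was 4.92% in dI1-like, 1.02% in dI2-like, 1.28% in dI4/dILA-like and 1.66% in dI5/dILB-like neurons, 1.36% in newborn neuron-like and 1.16% in pan-neuronal-like cells. It was 1.42% in progenitor-like, 1.65% in roof plate-like, 0.307% in dorsal midline epithelium-like, 0.85% in mesenchyme-like and 0.416% in pluripotent-like cells.

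Hoxb9 was at least 2-fold higher in 0 of the 11 classes. It was highest in dI4/dILA-like neurons, with 1293 and 1623 CPM, and lowest in pluripotent-like cells, with 24.1 and 26.3 CPM. Folds ran from 1.09 to 1.72, with a median of 1.24, and the interval lay above no difference in 10 classes. All 11 ratios were above 1, which held for 424 of 7152 genes (5.93%). With class shares alone giving 0.900-fold, the ratio over all cells was under that of most classes. The makeup of the group 9 transcripts differed as well: Hoxc9 made up 12.3% of the Hoxb9 and Hoxc9 UMIs in RA and 31.1% in RA+BMP4. In dI1-like neurons that share was 19.95% and 39.0%, in roof plate-like cells 17.1% and 31.1%, in dI4/dILA-like neurons 8.19% and 14.7%, and in progenitor-like cells 10.2% and 13.6%. Capture differs between genes, so only the change of the share between libraries or classes can be read.

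**Figure D2:**
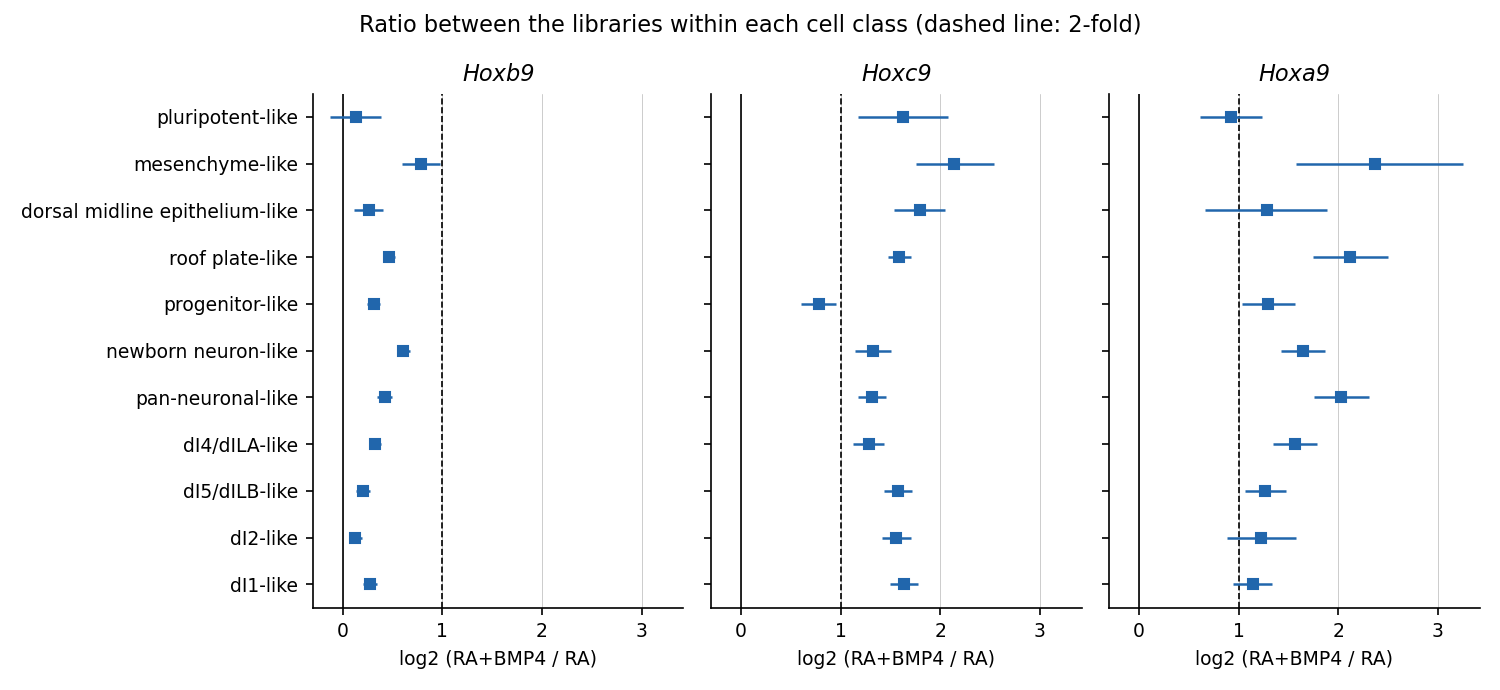
Log2 ratio of RA+BMP4 over RA for Hoxb9, Hoxc9 and Hoxa9 within each cell class, with 95% counting intervals as bars, a solid line at no difference and a dashed line at 2-fold. Hoxc9 lies past the dashed line in 10 of 11 classes (all but progenitor-like), Hoxa9 in 10 of 11 (all but pluripotent-like) and Hoxb9 in 0.

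RNA free in the droplet suspension adds UMIs to cells that do not express a gene, and the RA+BMP4 suspension held more Hoxc9 RNA. Barhl2, a factor of dI1 neurons, was at 264 CPM in dI1-like cells of that library and at 1.65 to 10.4 CPM in the other classes, 3.38% to 21.4% of its level over the library. Barhl1 and Barhl2 thus came into the count of 4 genes above at levels of at most 10.4 CPM outside dI1-like cells. Hoxc9 in pluripotent-like cells (4.42 and 13.6 CPM) stood at 6.26% of its RA+BMP4 library level, and in mesenchyme-like cells (5.35 and 23.5 CPM) at 10.8%, against 7.01% for Barhl2 in the latter. In these classes the Hoxc9 ratio cannot be told apart from free RNA. The other 9 classes stood at 38.6% or more. With the pluripotent-like level of the same library taken off, a calculation added after the data were seen, Hoxc9 was at least 2-fold higher in 9 of the 10 other classes, and in progenitor-like cells 1.58-fold higher. The 9 include mesenchyme-like cells, where only 0.931 and 9.92 CPM were left, so that ratio keeps the limit just given. Hoxa9 in mesenchyme-like cells rested on 15 and 106 UMIs, 1.23 and 6.35 CPM, or 9.61% of its RA+BMP4 library level. In dorsal midline epithelium-like cells it was at 13.2 CPM, 20.05% of that level, which lies within the range of Barhl2 across classes. The same limit holds for Hoxa9 in both of these classes, which are among the 10 counted as at least 2-fold higher. Hoxb9 stood at 9.35% of its RA+BMP4 library level in mesenchyme-like cells, where its fold was highest (1.72), and at 5.45% in pluripotent-like cells. Its ratios in mesenchyme-like and pluripotent-like cells keep this limit as well.

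Taken by cluster, 21 of the 24 clusters had at least 50 cells in both libraries, and Hoxc9 and Hoxa9 were each at least 2-fold higher in 18 of them. These clusters include the shallow clusters 20 and 21, which have no class name. They also include mesenchyme-like and pluripotent-like clusters, to which the free RNA limit applies. The exceptions for Hoxc9 were clusters 16 and 17, both progenitor-like, and cluster 10, a later dI1-like cluster. For Hoxa9 they were cluster 10, cluster 9 (dI5/dILB-like) and cluster 22 (pluripotent-like). The dI1-like ratio of Hoxc9, 3.11-fold, was larger than within any of its 3 clusters. In cluster 12, the early Atoh1-led cells, Hoxc9 was at 78.7 and 169 CPM (log2 ratio 1.10) and Hoxa9 at 50.05 and 238 CPM (2.25). In cluster 10 Hoxc9 was at 325 and 616 CPM (0.92) and Hoxa9 at 198 and 315 CPM (0.67). Cluster 4 had 11 RA cells, and Hoxc9 was at 545 and 740 CPM there (0.44). Hoxc9 was thus lower in cluster 12 than in clusters 4 and 10 in both libraries, and the RA library held few cells of the latter.

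The later dI1-like clusters could be compared within the RA+BMP4 library, which held 746 cells of cluster 4 (led by Sorcs3, Robo2 and Barhl1) and 568 of cluster 10 (led by Grin2a and Barhl2). Hoxc9 was close in both, at 740 and 616 CPM, a log2 ratio of 0.27 (0.20 to 0.33). Hoxb9 was at 439 CPM in cluster 4 and 1225 CPM in cluster 10, 2.79-fold apart, and Hoxa9 at 88.8 and 315 CPM, 3.55-fold apart. The group 9 paralogs thus did not go together between these neurons. Most Hoxa and Hoxb genes were lower in cluster 4 as well: at least 2-fold lower were 6 of 9 Hoxa genes (Hoxa7 at 131 and 319 CPM), 7 of 10 Hoxb genes (Hoxb8 at 247 and 512 CPM), 1 of 6 Hoxc genes and 1 of 4 Hoxd genes. Over all genes with at least 1 CPM in either cluster, 639 of 13195 (4.84%) were. At least 2-fold higher in cluster 4 were 0 of the 29 Hox genes and 935 of 13195 genes (7.09%). Of the 29 intervals, 20 lay below no difference, 2 lay above it and 7 spanned it. Hoxa10 (0.151 and 1.07 CPM) and Hoxc10 (1.05 and 2.13 CPM), both counted as 2-fold lower, were among those that spanned it. Hoxc8, the neighbour of Hoxc9, was at 1452 and 992 CPM, and Hoxc6 at 409 and 428 CPM. Median log2 ratios were -1.28 for Hoxa, -1.18 for Hoxb and -0.07 for Hoxc genes, against 0.04 over all 13195. Clusters were formed without Hox genes, but cells of 1 library are not replicates.

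Co-detection was read after each cell was thinned to 5000 UMIs, which kept 5713 RA and 7779 RA+BMP4 cells. Hoxb9 was found in 71.2% and 71.7% of cells, Hoxc9 in 22.9% and 49.6%, and Hoxa9 in 10.9% and 22.3%. Among cells with Hoxb9, 27.6% (26.2% to 29.0%) in the RA library and 56.4% (55.1% to 57.7%) in the RA+BMP4 library had Hoxc9 as well, and 40.6% and 69.6% without thinning. Among cells without Hoxb9 the shares were 11.3% and 32.5%, so Hoxc9 was found more often in both kinds of cell. By class, Hoxc9 among Hoxb9 cells went from 40.8% to 74.4% in dI1-like, from 38.1% to 78.9% in dI2-like, from 31.0% to 60.7% in dI4/dILA-like and from 36.5% to 67.4% in dI5/dILB-like neurons. It went from 20.5% to 45.3% in roof plate-like and from 21% to 33.9% in progenitor-like cells. The gap between cells with and without Hoxb9 seen over all cells did not hold within each class. In the RA+BMP4 library, Hoxc9 was found in 74.4% against 79.9% of dI1-like and 45.3% against 46.9% of roof plate-like cells. In newborn neuron-like cells it was 47.5% against 25.6%, and in progenitor-like cells 33.9% against 22.7%. As a background, Hoxc9 was found in 2.51% and 4.22% of pluripotent-like cells, whose median depths before thinning were 54121 and 38961 UMIs.

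Hoxa9 and Hoxc9 were found together in 4.83% and 15.1% of cells in the RA and RA+BMP4 libraries, 12.0% and 26.1% without thinning. The product of their separate shares was 2.50% and 11.1%, and within single classes the gap varied. In dI1-like neurons of the RA+BMP4 library 34.9% had both, where the product was 34.8%, and in dI5/dILB-like neurons 30.1% had both against a product of 30.4%. In that dI1-like class Hoxa9 was found in 46.4% of the cells with Hoxc9 and in 46.3% of the cells without it. The class pools clusters with unlike levels of both genes, so these values describe the class as a whole and not its clusters. In dI4/dILA-like neurons 31.6% had both against 25.5%, and in dI5/dILB-like neurons of the RA library 11.9% against 8.13%. All 3 of Hoxa9, Hoxb9 and Hoxc9 were found in 4.48% and 13.7% of cells, with none of them in 24.8% and 18.1%. Cells with all 3 were most frequent in dI1-like neurons (12.1% and 32.2%), dI4/dILA-like neurons (8.77% and 30.8%) and dI5/dILB-like neurons (11.5% and 29.3%). They made up 2.50% and 9.44% of progenitor-like, 0.659% and 3.28% of roof plate-like and 0% of pluripotent-like cells in both libraries, where counts of 0 of 319 and 0 of 166 cells allow shares of up to 0.940% and 1.81%, taken as 3 cells of the total.

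**Figure D3:**
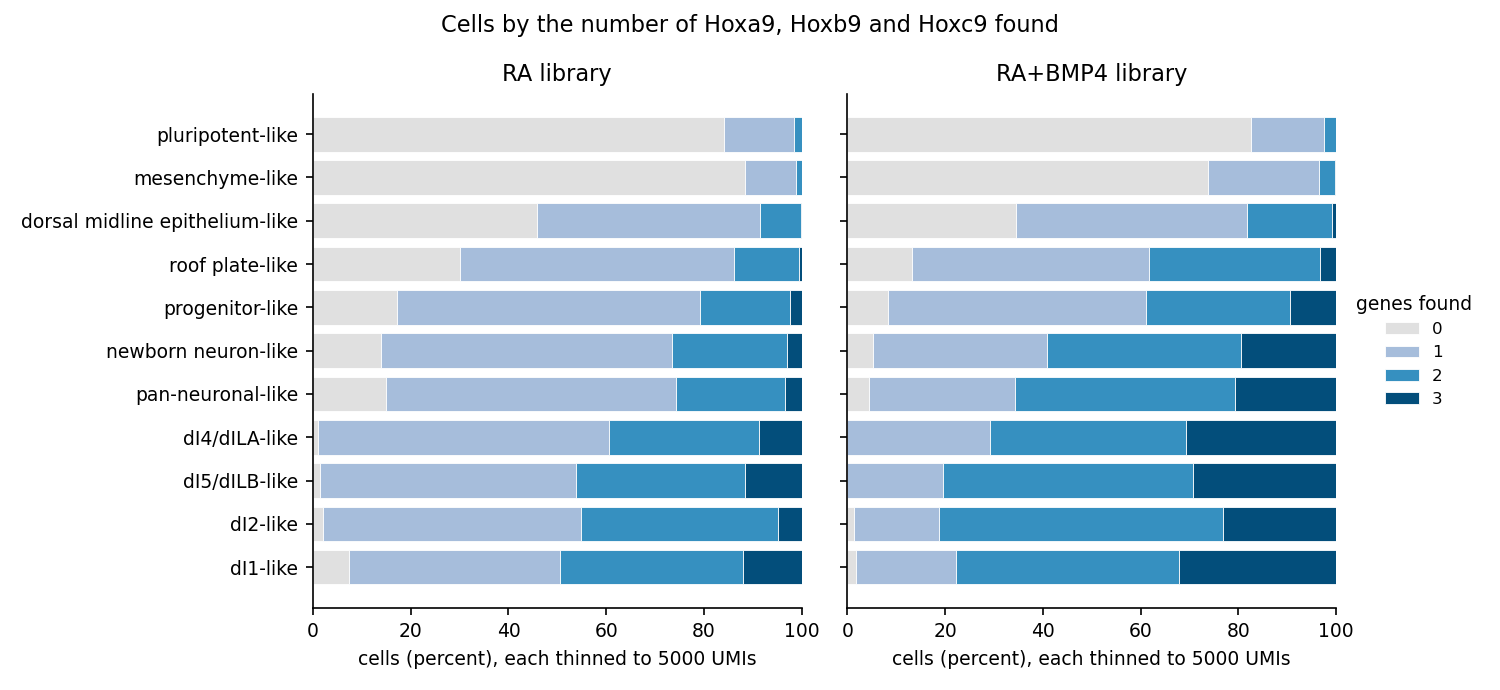
Percent of cells in each class in which 0, 1, 2 or 3 of Hoxa9, Hoxb9 and Hoxc9 were found, in the RA library (left) and the RA+BMP4 library (right), each cell thinned to 5000 UMIs. The darkest part, cells with all 3 genes, goes from 12.1% to 32.2% in dI1-like neurons and is 0% in pluripotent-like cells.

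Hoxd9, Hoxa10 and Hoxc10 were low. Hoxd9 had over 3 UMIs in both libraries in 8 classes and was at least 2-fold higher with BMP4 in 5 of them, but of these 8 the interval lay above no difference only in mesenchyme-like cells, where it went from 0.823 to 3.59 CPM (10 and 60 UMIs), a log2 ratio of 2.13 (1.15 to 3.26). Over the 6 neuron classes together it went from 0.987 to 3.17 CPM. In mesenchyme-like cells Hoxd9 had about the level it had in neurons, whereas Hoxb9 was far lower there. Hoxc10 was found at 7 UMIs (0.177 CPM) in RA neurons and 33 UMIs (0.968 CPM) in RA+BMP4 neurons, a log2 ratio of 2.45 (1.25 to 3.87). In 0 classes did it have over 3 UMIs in both libraries. The neurons pooled here differed in class makeup between the libraries. The dI1-like neurons, 174 and 1759 cells, held 0 and 20 of these Hoxc10 UMIs. At equal class shares, with the classes other than neurons included, the log2 ratio of Hoxc10 was 0.98 (0.16 to 1.80). How far makeup entered the pooled neuron levels of Hoxd9, Hoxc10 or Hoxa10 was not tested. Hoxa10 in neurons was at 1.24 and 1.35 CPM.

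Hoxa10 had most of its UMIs in the pluripotent-like class, cells with Ooep, Dppa5a or Dppa3 among their leading genes: 422 of 527 (80.1%) in RA and 184 of 263 (70.0%) in RA+BMP4. That class held 16.6% and 6.55% of the kept UMIs. The level there was 23.3 and 27.5 CPM, against 1.16 and 0.829 CPM in all other cells, 20.2-fold and 33.2-fold. The Hoxa10 ratio depended on how the cells were combined: on the log2 scale it was 0.24 (0.01 to 0.46) at equal class shares and -0.48 (-0.92 to -0.04) without the pluripotent-like cells, and class shares alone gave 0.418-fold. Under a stricter cell filter (at least 2000 genes, at most 5% mitochondrial UMIs) the library ratio was 0.18. That filter kept 1247 RA and 5895 RA+BMP4 cells, and the cause of the change in the ratio was not tested. Hoxa11, the next gene of the cluster, had 94.5% and 82.9% of its UMIs in these cells (104 of 110 and 34 of 41). Hoxa9 had 7.97% and 2.24% there, Hoxb9 0.929% and 0.357%, and Hoxc9 1.21% and 0.410%.

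**Figure D4:**
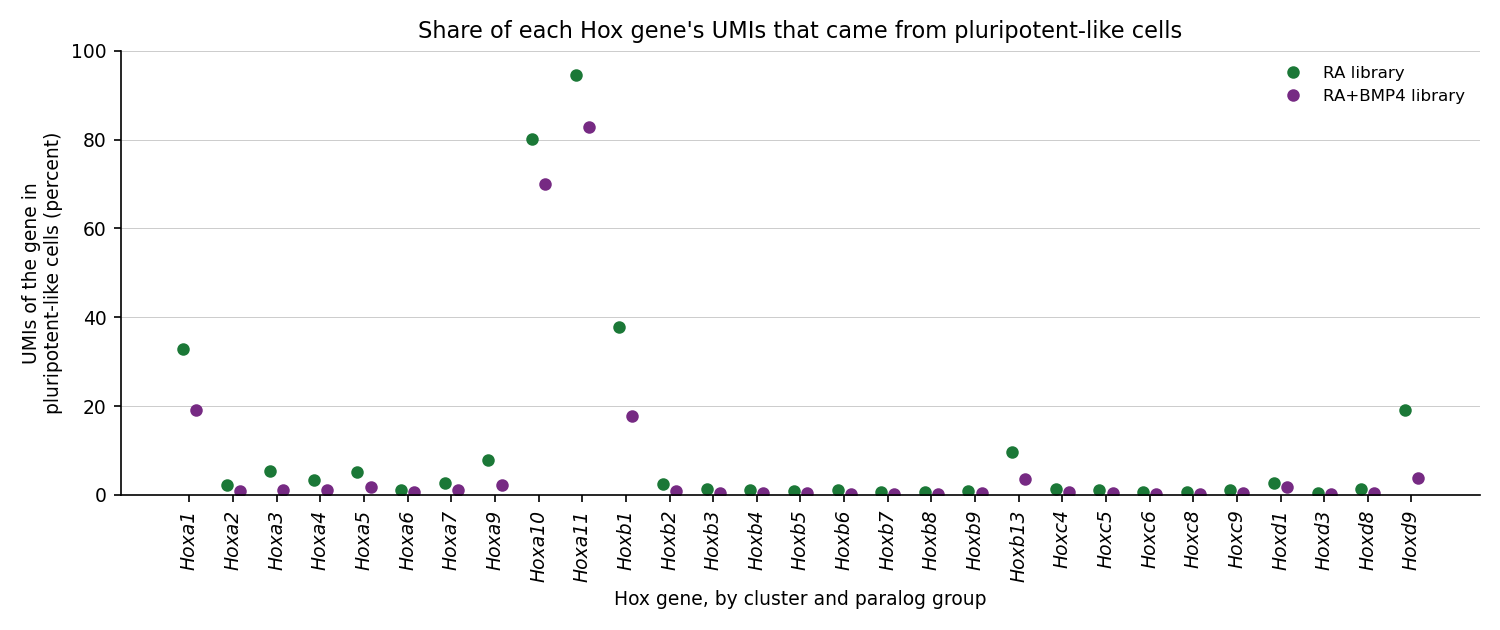
Percent of each Hox gene's UMIs that came from pluripotent-like cells, by cluster and paralog group, for the RA library (green) and the RA+BMP4 library (purple), for genes with at least 50 and 40 UMIs. Hoxa10 (80.1% and 70.0%) and Hoxa11 (94.5% and 82.9%) stand above the other genes, of which Hoxb1 is next with 37.9% and 17.8%.

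The Hoxa10 transcripts lay in a part of these cells. In cluster 19, 60 of 223 RA cells (26.9%, exact binomial interval 21.2% to 33.2%) and 24 of 95 RA+BMP4 cells (25.3%, 16.9% to 35.2%) had at least 3 UMIs, with a maximum of 23 and 14, and 125 and 48 cells had 0. Hoxa9 was found in 68.3% and 79.2% of the cells with at least 3 Hoxa10 UMIs and in 16% and 20.8% of the cells with 0. Its mean was 2.02 against 0.296 UMIs per cell in RA and 3.08 against 0.396 in RA+BMP4. Hoxb9 had 1.90 against 0.976 and 1.67 against 1.33 UMIs per cell, and Hoxc9 0.433 against 0.136 and 0.625 against 0.667. So the neighbours Hoxa9 and Hoxa10 were found together in these cells in both libraries, while Hoxb9 and Hoxc9 differed less. The cells with Hoxa10 were deeper (medians of 58855 against 48941 and 43797 against 35196 UMIs), and their median doublet scores were lower (0.0622 against 0.0741 and 0.0645 against 0.103).

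Among the other Hox genes, 0 of 14 in groups 1 to 5 and 0 of 8 in groups 6 to 8 with at least 1 CPM were 2-fold higher or lower, over the libraries (2.54% and 2.67% of all genes) or at equal class shares. Their median log2 ratios at equal shares were 0.13 and 0.05, next to 1.34 for the 4 group 9 genes and 0.07 over all 13920 genes. Of those 13920 genes, 251 (1.8%) were 2-fold higher and 90 (0.647%) lower. Hoxc9 and Hoxa9 were chosen for their library difference, so the group 9 median is given as a description. The neighbours of Hoxa9 in the anterior direction had the opposite sign, with Hoxa7 at -0.38 and Hoxa5 at -0.59. Hoxc8 stood at 0.37 and Hoxb8 at 0.19. At equal class shares Hoxa9 and Hoxc9 thus stood apart from the adjacent gene of the same cluster, Hoxa7 or Hoxc8. Mesenchyme-like cells were the only class in which Hoxa7 and Hoxc8 were at least 2-fold higher. Hoxc8 was at 23.1 and 86.9 CPM there, a log2 ratio of 1.91 (1.73 to 2.1), and Hoxc9 had 2.14 (1.76 to 2.54). Hoxa7 had 1.12 (0.90 to 1.34) and Hoxa9 2.36 (1.58 to 3.25). The free RNA limit given above holds for Hoxc9 and Hoxa9 in that class. Hoxc8 was at 434 CPM over the RA+BMP4 library, so its share in that class also lies within the range of Barhl2 across classes. The same limit thus holds for Hoxc8 there. Long non-coding RNAs of the Hox clusters had 0 of 5 past 2-fold, and Hoxaas3, from the Hoxa cluster, was at 33.5 and 23.0 CPM.

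**Figure D5:**
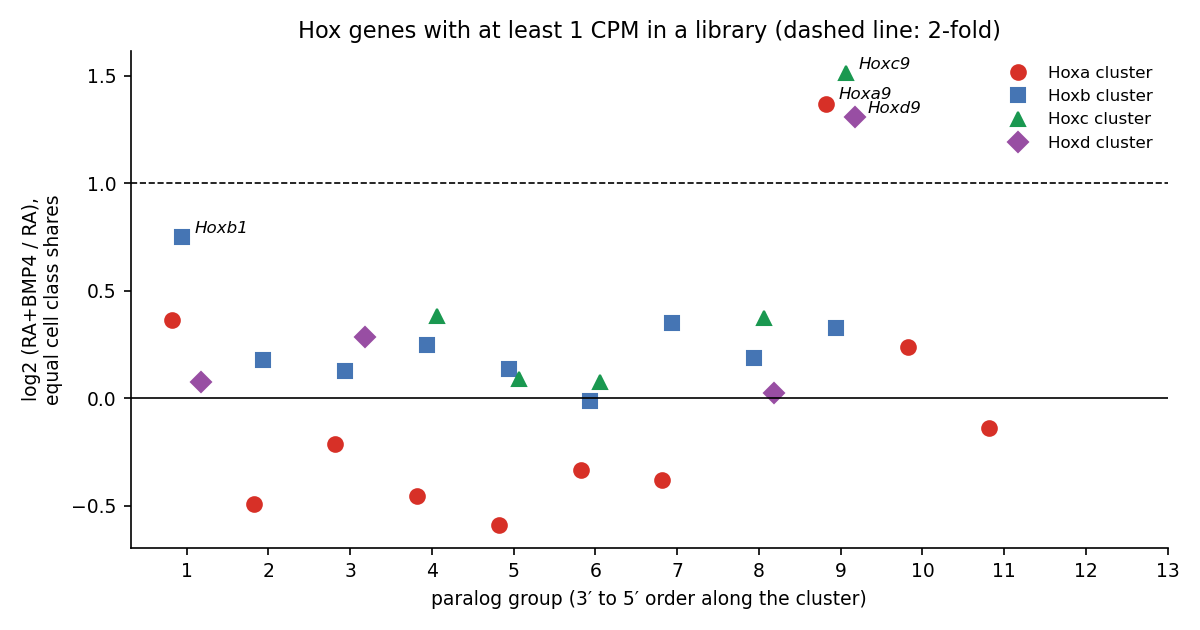
Log2 ratio of RA+BMP4 over RA at equal cell class shares for each Hox gene with at least 1 CPM in a library, by paralog group, with a symbol for each of the 4 Hox clusters and a dashed line at 2-fold. Hoxc9 (1.51), Hoxa9 (1.37) and Hoxd9 (1.31) lie past the line, and all genes of groups 1 to 8 lie below it.

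Genes that act on or with the Hox genes were read from lists. Over all genes with at least 1 CPM, 2.54% were at least 2-fold higher over the libraries and 2.67% lower. At equal class shares 1.8% were higher and 0.647% lower. Of the Cdx and axial elongation genes, which set Hox expression in the tail bud, 2 of 8 with at least 1 CPM were at least 2-fold higher over the libraries and 3 lower, with 2 higher and 0 lower at equal shares. The genes higher were not the same pair: Cdx2 and Wnt3a over the libraries, Cdx1 and Cdx2 at equal shares. Cdx2 was at 0.495 and 1.06 CPM (54 and 108 UMIs), with a log2 ratio of 2.16 at equal shares. Cdx1 was at 4.0 and 3.78 CPM over the libraries and at 2.88 and 6.76 CPM at equal shares, a log2 ratio of 1.23. Gdf11, a TGF-beta ligand that promotes posterior Hox genes, was at 34.1 and 30.4 CPM. Wnt3a, itself a roof plate gene, was at 5.51 and 15.2 CPM, with a log2 ratio of 0.82 at equal shares. The Pbx and Meis cofactors, which bind DNA together with Hox proteins, had 0 of 9 past 2-fold, with a median log2 ratio of 0.08 at equal shares. Of the Polycomb and trithorax genes, which keep Hox genes silent or active, 0 of 15 were past 2-fold. The retinoic acid pathway had 2 of 14 higher over the libraries (Crabp1 at 396 and 976 CPM) and 0 at equal shares. The BMP response list had 3 of 10 higher (Msx1 at 100.02 and 205 CPM) and 1 at equal shares, Msx2. Msx1 and Msx2 were also among the markers that named the roof plate-like class, and Msx1 had a log2 ratio of 0.50 at equal shares.

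Across 45 profiles of clusters by library, the levels of Hoxa9, Hoxb9 and Hoxc9 followed each other with Spearman correlations of 0.86 (Hoxa9 and Hoxb9), 0.85 (Hoxa9 and Hoxc9) and 0.81 (Hoxb9 and Hoxc9). Profiles of 1 library share its depth and free RNA, so these are a description. Of 6975 genes, those most like Hoxb9 were Hoxb8 (0.96), Hoxb2 (0.95), Mir124-2hg (0.94), Ncan (0.93) and Prdx2 (0.92). Those most like Hoxc9 were Tsc22d3 and Scg5 (0.93 each) and Nsg2, Ulk2 and Spast (0.91 each). Hoxa9 had Rsrc2, Spast and Rsbn1 (0.88 each) and Rundc3a and Zmiz2 (0.87 each). Other Hox genes were thus among the 5 genes most like Hoxb9 and not among those most like Hoxc9 or Hoxa9.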

How the data were processed

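Cells of the MM13 line at day 9 were dissociated, freed of dead cells and captured with 10x Genomics 3′ v3 chemistry, per the labels' protocols. The authors deposited raw UMI counts per gene and barcode. The submitters' processing notes name CASAVA, Cell Ranger 3.0.2 and GRCm38. The annotation release is not given in the sources used here. Barcodes held 500 or 602 UMIs at the lowest.

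The members and gene lists were chosen with earlier results of these data known. Named genes were the 6 members, genes of the lists and, for likeness, the 5 genes with the highest Spearman correlation for each of Hoxa9, Hoxb9 and Hoxc9 (predicted gene models left out). Other names were chosen after their values were seen. Cells with under 1000 genes or over 10% mitochondrial UMIs were left out. Scrublet in scanpy 1.11.5 (expected rate 8%) removed 138 and 298 called doublets. Both libraries were clustered together (3000 variable genes, 30 components, 20 neighbours, leidenalg 0.10.2 at resolution 1) without marker, listed, Hox, mitochondrial or ribosomal genes, and clusters took names from markers. UMIs were summed per class and library and divided by that sum (CPM). Ratio intervals are exact conditional binomial, intervals of shares Clopper-Pearson and of levels Poisson, all at 95% (scipy 1.17.1), and cover counting error only; a count of 0 was set to 3 for a ratio. Class weights for equal shares were the mean UMI share of the 2 libraries. The pluripotent-like class was taken as the background class. Clusters without a class name, among them 2 shallow ones, were in no class. The ratio calculation was tested on simulated data. Alternatives were another cell filter, scaling (edgeR 4.0.16 TMM, median of ratios), clustering, thinning and doublet handling.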

Additional observations from a re-analysis of the deposited data

Results flagged for a closer look

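The barcodes left out by the cell filters (3804 in RA and 4769 in RA+BMP4) are outside the comparisons above and also held group 9 transcripts. Hoxc9 was at 54.3 CPM in the RA barcodes left out and at 200.01 CPM in the RA+BMP4 barcodes left out, a log2 ratio of 1.88 (1.76 to 2.003). Hoxa9 was at 20.3 and 63.4 CPM, a log2 ratio of 1.64 (1.44 to 1.85). Hoxb9, at 425 and 422 CPM, differed little. Barcodes with few genes, many mitochondrial UMIs or a doublet call were pooled here, so the ratios are not known for each kind. They come from the same libraries that the genes were chosen from and also carry free RNA, so they are no independent check.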

How the results depend on the processing

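No paired analysis was possible because each condition had 1 library and the results come from no test. Of 85 alternative values, 55 moved by less than the counting interval or by less than 1.5 times for a count, and 30 moved further. Over all kept cells, the log2 ratio of Hoxc9 was 1.78 with cells weighted equally, 2.09 under the stricter cell filter (at least 2000 genes, at most 5% mitochondrial UMIs), 1.79 with TMM, 1.77 with median of ratios and 1.69 without pluripotent-like cells. Hoxa9 was 1.28 with equal weights, 1.79 under the stricter filter, 1.33 with median of ratios and 1.33 without pluripotent-like cells. Hoxb9 was -0.021 with equal weights, 0.35 under the stricter filter, 0.15 over all barcodes, 0.11 with TMM, 0.092 with median of ratios and 0.0099 without pluripotent-like cells. TMM moved every gene by -0.06 and median of ratios by -0.07. Hoxa10 was 0.18 under the stricter filter and -0.48 without pluripotent-like cells, so its direction depended on the filter; the cause was not tested. At equal class shares Hoxc9 was 1.41 at resolution 1.5 and 1.41 under the stricter filter, and Hoxa9 was 1.58 with each library clustered alone and 1.59 under the stricter filter. These equal-share values rested on 12 classes at resolution 1.5 and on 9 under the stricter filter or with each library clustered alone. Counted over clusters in place of classes, 18 of 21 were at least 2-fold higher for Hoxc9 and 18 of 21 for Hoxa9. The 21 include shallow clusters without a class name and clusters to which the free RNA limit applies. The ratio of Hoxc9 shares among Hoxb9 cells, 2.05, was 2.53 at 2500 UMIs, 1.84 at 10000 UMIs, 1.72 without thinning and 3.21 when each gene needed 2 UMIs. That of Hoxa9 and Hoxc9 together, 3.13, was 2.47 at 10000 UMIs, 2.18 without thinning and 4.42 with 2 UMIs. Depth limits Hoxd9, Hoxa10 and Hoxc10 in single classes, where most intervals spanned no difference.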
